A study of Homo sapiens with 5 samples.

Results

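The ERK mitogen-activated protein kinase (MAPK) pathway carries growth signals from receptor tyrosine kinases through RAS, RAF and MEK to ERK, and active ERK switches on genes whose products damp the same pathway. ETS proteins are transcription factors that bind DNA with a GGAA core, and several of them are known to act downstream of ERK. The genes DUSP6, SPRY2, SPRY4 and SPRED1 encode such feedback inhibitors, and their loci were examined for sites bound by ERG, an ETS protein that is produced from the TMPRSS2-ERG fusion in prostate cancer, and by p53.

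The cells were VCaP, an established prostate cancer line that carries this fusion and a mutant form of p53. All were untreated, and their chromatin was immunoprecipitated and sequenced (ChIP-seq) with an anti-ERG antibody (2 samples) and with the anti-p53 antibody DO-1 (2 samples). The other sample was input chromatin, for which no list was used here. VCaP is 1 cell line. The study's reporting summary calls the 2 ChIP-seq replicates biological, and the labels do not say whether they were separate cultures. Peaks, the stretches where reads piled up above background, were listed for each sample, and the identity of the line cannot be checked from such lists. The 4 genes were chosen by name. A peak was counted for a gene when it overlapped the gene's span (hg19, given in whole kb) widened by 50 kb on each side. These windows held 13 of the 14337 ERG peaks of replicate 1, 10 of the 11237 ERG peaks of replicate 2, 0 of the 227 p53 peaks of replicate 1 and 0 of the 138 p53 peaks of replicate 2. A region where a peak of each ERG replicate overlapped by at least 1 bp was called shared, and the windows held 10 of the 9366 shared ERG regions. All peak positions are hg19 and counted from 1, and the lists give no height, p-value or summit, so that width is the only measure of a single peak.

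DUSP6, SPRY2 and SPRY4 are transcribed from the minus strand and SPRED1 from the plus strand. The end of the span at which transcription starts is called the start edge below, and its position carries the 1 kb rounding of the spans. The gene lengths in RefSeq (GRCh38) were shorter than the spans by 0.586 to 1.41 kb, so a start edge may lie upstream of the annotated start. To show what the start regions of these genes look like in sequence, the 250 bases before the annotated start are given here as given by RefSeq (GRCh38.p14), 5′ to 3′ in the direction of transcription. The ETS core GGAA, or TTCC where it lies on the other strand, is in capitals. The windows are chr12:89352502-89352751 (minus strand) for DUSP6, chr13:80341127-80341376 (minus strand) for SPRY2, chr15:38252586-38252835 (plus strand) for SPRED1 and chr5:142324248-142324497 (minus strand) for SPRY4. For SPRY2 the most upstream of 3 annotated starts was used.
DUSP6: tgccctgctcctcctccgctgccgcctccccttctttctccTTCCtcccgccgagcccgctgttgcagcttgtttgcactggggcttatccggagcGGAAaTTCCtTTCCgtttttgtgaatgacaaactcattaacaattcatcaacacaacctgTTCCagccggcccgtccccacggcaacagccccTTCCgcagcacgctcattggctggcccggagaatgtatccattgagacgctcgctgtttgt
SPRY2: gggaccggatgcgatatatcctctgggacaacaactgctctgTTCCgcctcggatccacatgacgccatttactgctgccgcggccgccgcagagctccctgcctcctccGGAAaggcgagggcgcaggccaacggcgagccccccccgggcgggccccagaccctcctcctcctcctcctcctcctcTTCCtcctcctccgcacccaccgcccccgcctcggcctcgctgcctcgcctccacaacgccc
SPRED1: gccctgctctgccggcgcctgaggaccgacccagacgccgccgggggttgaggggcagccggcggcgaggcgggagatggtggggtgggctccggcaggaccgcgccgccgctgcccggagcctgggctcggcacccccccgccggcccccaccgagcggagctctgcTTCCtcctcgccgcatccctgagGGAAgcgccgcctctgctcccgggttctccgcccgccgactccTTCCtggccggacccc
SPRY4: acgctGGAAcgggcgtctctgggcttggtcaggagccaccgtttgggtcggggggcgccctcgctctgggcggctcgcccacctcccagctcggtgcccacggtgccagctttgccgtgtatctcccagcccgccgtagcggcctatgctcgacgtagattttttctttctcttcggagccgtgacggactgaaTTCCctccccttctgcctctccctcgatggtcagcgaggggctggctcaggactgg

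The core was present 6 times before the start of DUSP6, 3 times each before those of SPRY2 and SPRED1, and 2 times before that of SPRY4. GGAA is a common word, found on either strand in 92.7% of 35116 promoter windows of this length, with a mean of 2.93 matches. The longer ETS letters AGGAAG, which contain the core, occurred once in DUSP6 and SPRY2, 2 times in SPRED1 and not in SPRY4, and in 28.7% of all windows. CCGGAA, which also contains it, was found in SPRY2 alone of the 4 and in 14.5% of all windows, and CCGGAAGT in none of the 4 and 3.42% of all. These bases come from another build than the peaks, so it was not determined which of them lie under a peak.

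DUSP6 encodes a phosphatase that removes the activating phosphates from ERK. Its window, on chromosome 12 from 89691000 to 89797000, had 8 ERG peaks in replicate 1 and 7 in replicate 2, and 7 regions were shared. The other 3 genes had 1 shared region each. Relative to the span (89741000 to 89747000), 3 of the 7 shared regions lay upstream, 2 inside and 2 downstream.

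Of these 7, 4 stood close together around the gene itself. The first lay upstream of the start edge at 89747572 to 89748157, with its nearest base 0.572 kb from the edge, and its peaks were 552 bp wide in replicate 1 and 493 bp in replicate 2. The second lay inside the span at 89746118 to 89746761, 0.239 kb from the edge, with widths of 644 bp and 515 bp. The third was also inside, at 89744945 to 89745419 and 1.58 kb from the edge, with widths of 402 bp and 450 bp.

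The fourth lay just beyond the far end of the gene, at 89740188 to 89740780, with widths of 550 bp and 591 bp. Gaps of 0.81 kb, 0.698 kb and 4.16 kb separated these 4 neighbours. Together they took up 7.97 kb, of which the regions covered 28.8%. Whether the inner regions are exonic, intronic or partly before the transcription start was not determined, since no hg19 gene model was at hand.

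**Figure D1:**
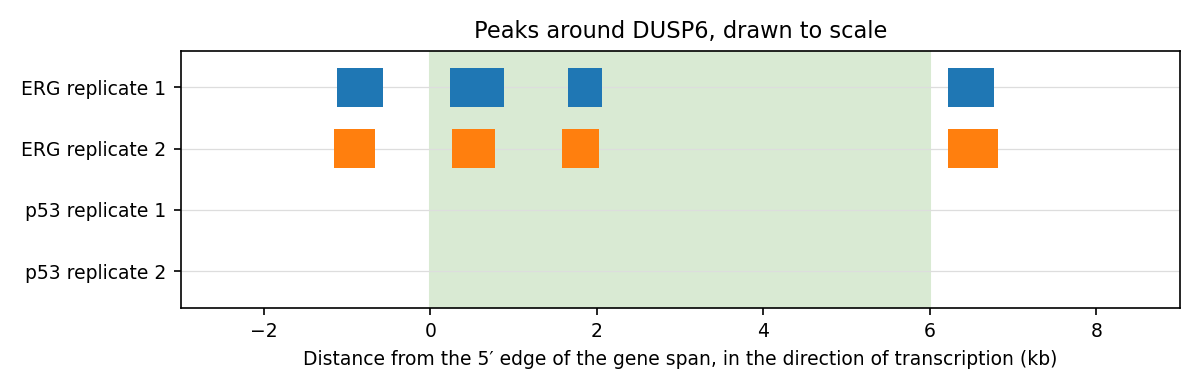
Peaks around DUSP6 in the 4 lists (rows), drawn to scale against the distance from the start edge in kb (x axis, negative is upstream). The shaded band is the gene span. Both ERG replicates have the same 4 peaks between 1.16 kb upstream of the edge and 6.81 kb past it, and the p53 rows are empty.

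A run of 4 neighbouring shared ERG regions this short was rare in the lists. Of 9294 such runs over the genome, 3 were as short or shorter (0.0323%, the DUSP6 run included), and the median run was 488 kb long. The other runs lay on chromosome 7 at 38345818 to 38352840 (7.02 kb) and on chromosome 12 at 6642534 to 6650022 (7.49 kb). These 4 DUSP6 regions were picked from the 7 of the window after the peaks had been seen. All 7 took up 64.3 kb, and 21 of 9222 runs of 7 were as short or shorter (0.228%). No test was made of either run, because the gene was picked with earlier results of these data known. Copy number and local read depth at the locus were not analysed here.

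The remaining DUSP6 regions were more distant. Upstream, a region at 89783880 to 89784390 lay 36.9 kb from the start edge (511 bp and 334 bp), and another at 89778649 to 89778937 lay 31.6 kb from it (244 bp and 234 bp). Beside the latter, replicate 1 alone had another peak of 217 bp at 89778194 to 89778410. Downstream, a region at 89720056 to 89720325 lay 26.7 kb past the start edge (270 bp and 194 bp).

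The distant regions were mostly narrower than those around the gene. Taking the smaller width of each pair, the 4 regions around the gene were wider than 72.4% to 89.9% of all shared ERG regions. The distant ones were wider than 57.0%, 19.2% and 2.75%. In each replicate separately, the 4 central peaks were wider than every distant peak with 1 exception, the peak of 511 bp at 36.9 kb upstream in replicate 1, which exceeded the 402 bp peak inside the gene.

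The number of shared regions at DUSP6 was also high for a window of its length. When the genome was cut into 28304 tiles of 106 kb, 11 tiles (0.0389%) held at least 7 shared ERG regions, 4 of them held 8, which was the highest count, and the mean was 0.331. Among the tiles with a peak of any of the 4 lists, 0.112% held 7 or more. The tiles were laid without regard to genes, whereas the window is centred on a gene, so the shares serve as a scale only. In the 500 kb on each side of DUSP6, outside the window, only 3 further shared regions were found in 900 kb, or 0.333 per 100 kb, against 6.6 per 100 kb within it and 0.312 per 100 kb over the genome.

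**Figure D2:**
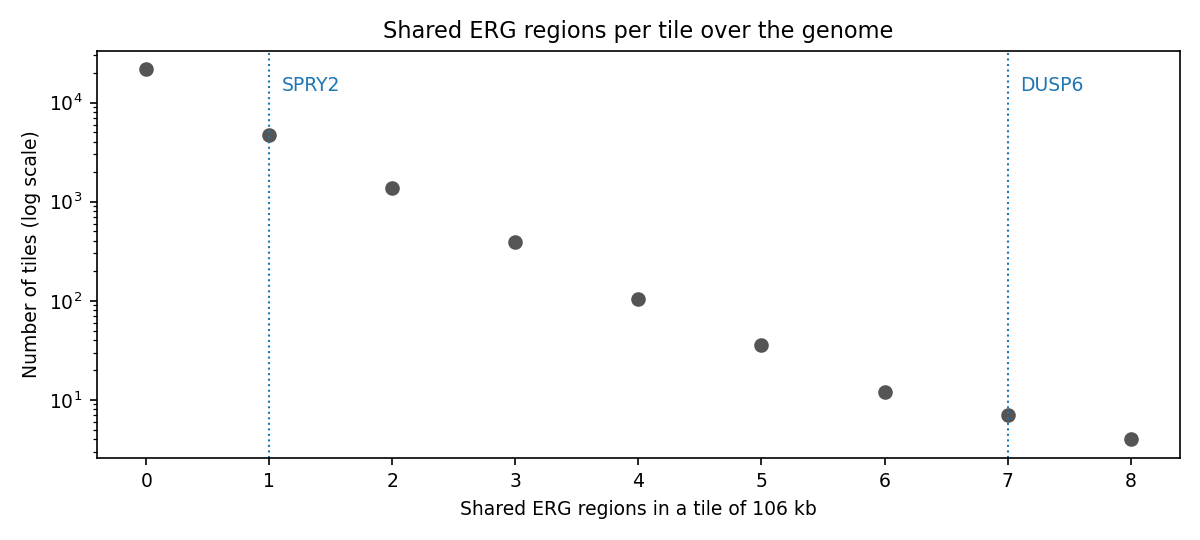
Number of genome tiles of 106 kb (y axis, log scale) by the shared ERG regions they hold (x axis). Dotted lines mark the counts in the DUSP6 window (7) and the SPRY2 window (1), which have the same length as the tiles, and 11 of 28304 tiles reach 7 or more.

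SPRY2 and SPRY4 are Sprouty proteins, adaptors that restrain signalling from receptor tyrosine kinases to RAS and ERK. SPRY2 had 1 ERG peak per replicate in its window (chromosome 13, 80860000 to 80966000). The replicate 1 peak at 80914972 to 80915769 was 798 bp wide, wider than 95.8% of its list, and the replicate 2 peak at 80915233 to 80915619 was 387 bp wide, wider than 69.4% of its list. The smaller peak lay wholly inside the larger, and the shared region was inside the span with its nearest base 0.231 kb from the start edge.

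This was the least even of the 10 shared regions, with a ratio of widths of 2.06 and an overlap of 48.5% of the region. Few other ERG regions lay near it. The nearest other shared ERG region was 0.693 Mb away, and upstream of the gene the next ERG peak of either replicate lay 5.17 Mb from the span. Downstream, peaks of a single replicate were closer, at 0.203 Mb in replicate 1 and 0.1 Mb in replicate 2. Of all shared ERG regions, 4.66% had no other within 500 kb, and the median distance to the nearest other was 53.4 kb.

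SPRY4 differed from the other genes in where ERG was found. No ERG peak of either list lay inside its span (chromosome 5, 141689000 to 141705000) or within 5 kb of its start edge. Its shared region was upstream at 141736286 to 141736898, 31.3 kb from the edge, with peaks of 590 bp and 432 bp whose midpoints were 102 bp apart, the largest offset of the 10. Replicate 1 alone had a second peak of 325 bp at 141670278 to 141670602, downstream of the gene. Within 500 kb of the span but outside the window there were 8 further shared regions, or 0.889 per 100 kb, close to the 0.862 per 100 kb within it.

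SPRED1, a relative of the Sprouty proteins, recruits neurofibromin to the membrane, where it switches RAS off. Its span is the longest of the 4 (chromosome 15, 38545000 to 38650000), and no ERG peak was listed inside it. The shared region lay immediately upstream at 38544044 to 38544656, with its nearest base 0.344 kb from the start edge, within the rounding of the span. Its peaks of 605 bp and 543 bp overlapped over 87.3% of the region, second only to the 92.4% of the region past the end of DUSP6. Replicate 1 alone had a peak of 331 bp at 38508989 to 38509319, 35.7 kb upstream. As at SPRY2, the shared region stood by itself, with the nearest other 1.11 Mb away and 0 others within 500 kb of the span.

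**Figure D3:**
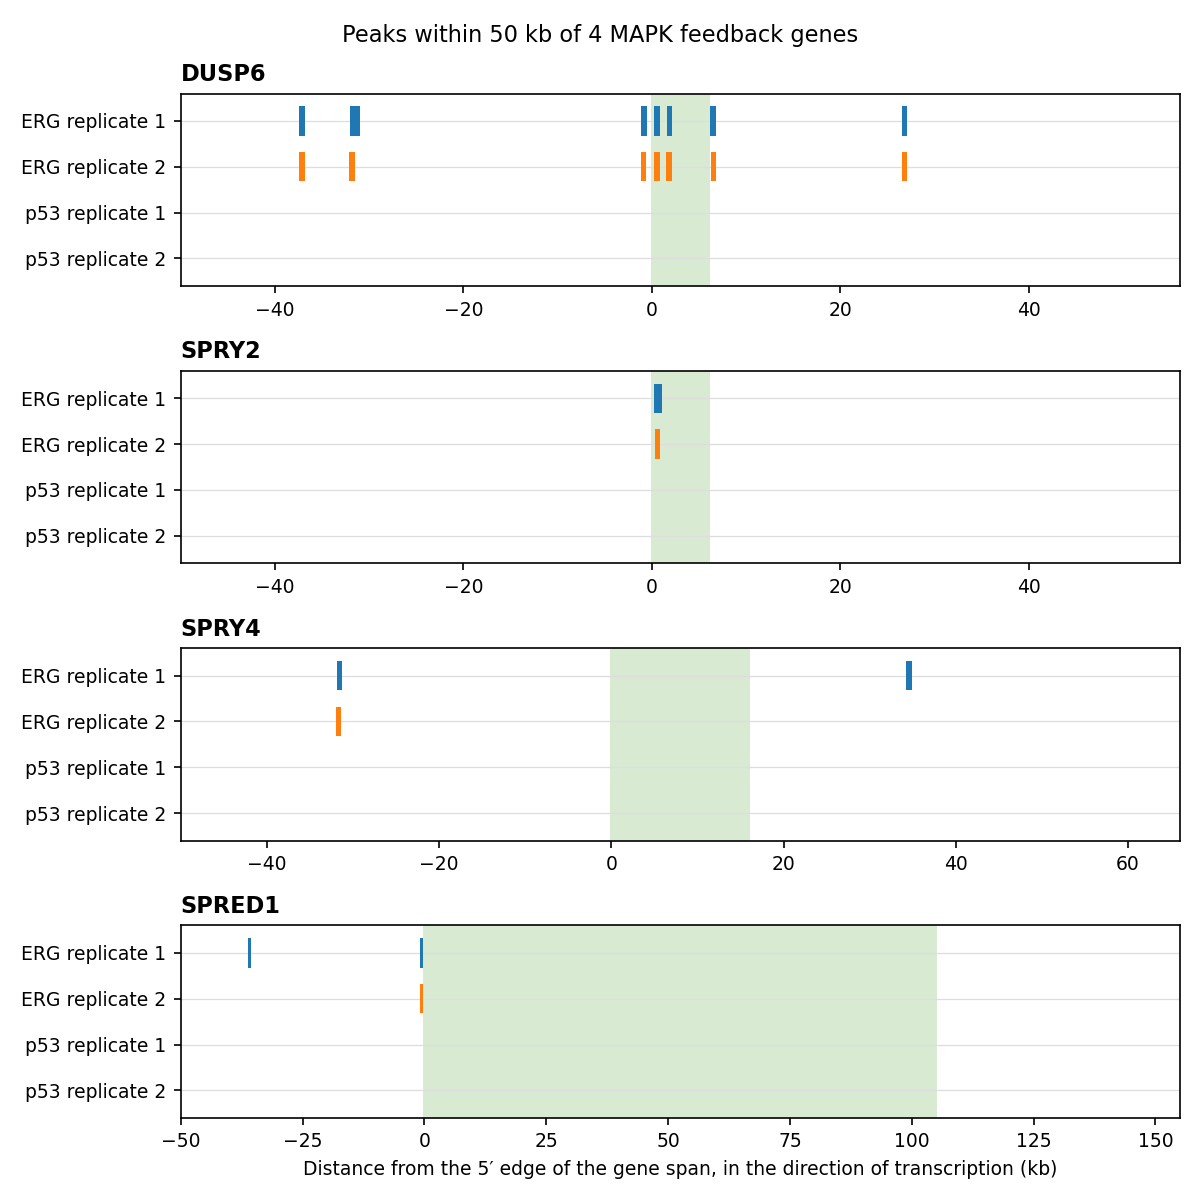
Peaks of the 4 lists (rows) in the windows of the 4 genes, by distance from the start edge in the direction of transcription (x axis, kb). Shaded bands are the gene spans, and narrow peaks are drawn wider than they are so that they can be seen, which joins a pair of replicate 1 peaks near 31 kb upstream of DUSP6. DUSP6 has 7 positions with a peak in both ERG replicates and the other genes 1 each, and the p53 rows are empty.

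Across the 4 genes, all windows thus held a shared ERG region. At SPRY2, SPRY4 and SPRED1 this alone is not unusual, since 23.5% of tiles of 106 kb, 25% of tiles of 116 kb and 36.4% of tiles of 205 kb held at least 1, and 67.7%, 68.0% and 72.4% of those with a peak of any list did. Near the starts the genes were more alike, SPRY4 excepted. At 3 of the 4 genes a shared ERG region lay within 1 kb of the start edge, 2 at DUSP6 and 1 each at SPRY2 and SPRED1. In the genome as a whole, 0.766% of tiles of 2 kb held a shared region. Starts of other genes were not located in hg19, so whether ERG is found at these starts more often than at starts in general was not tested.

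The replicates were close to each other at these loci. In replicate 1, 10 of 13 peaks (76.9%, 95% Wilson interval 49.7% to 91.8%) recurred in replicate 2, against 65.4% of its whole list. In replicate 2, 10 of 10 (72.2% to 100%) recurred in replicate 1, against 84.2%. The intervals cover counting error only and treat peaks as independent. Of the 13 and 10 peaks, 8 and 7 came from the DUSP6 window. Both intervals include the share of the whole list, so no difference from the rest of the list was detectable with so few peaks. The 3 peaks found in 1 list were all in replicate 1, the longer list, and at 217, 325 and 331 bp they were below its median of 351 bp.

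Midpoints of the replicate peaks were 22.5 to 102 bp apart, with a median of 44.8 bp, against 35 bp over all shared ERG regions. The overlap had a median of 75.1% of the region, against 74.2%. The replicate 1 peak was the wider in 8 of the 10 regions, as in 75.1% of all shared regions with 1 peak per replicate. In width, 7 of the 10 recurring peaks of replicate 1 and 8 of the 10 of replicate 2 exceeded the medians of recurring peaks in their lists, which were 403 bp and 326 bp.

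**Figure D4:**
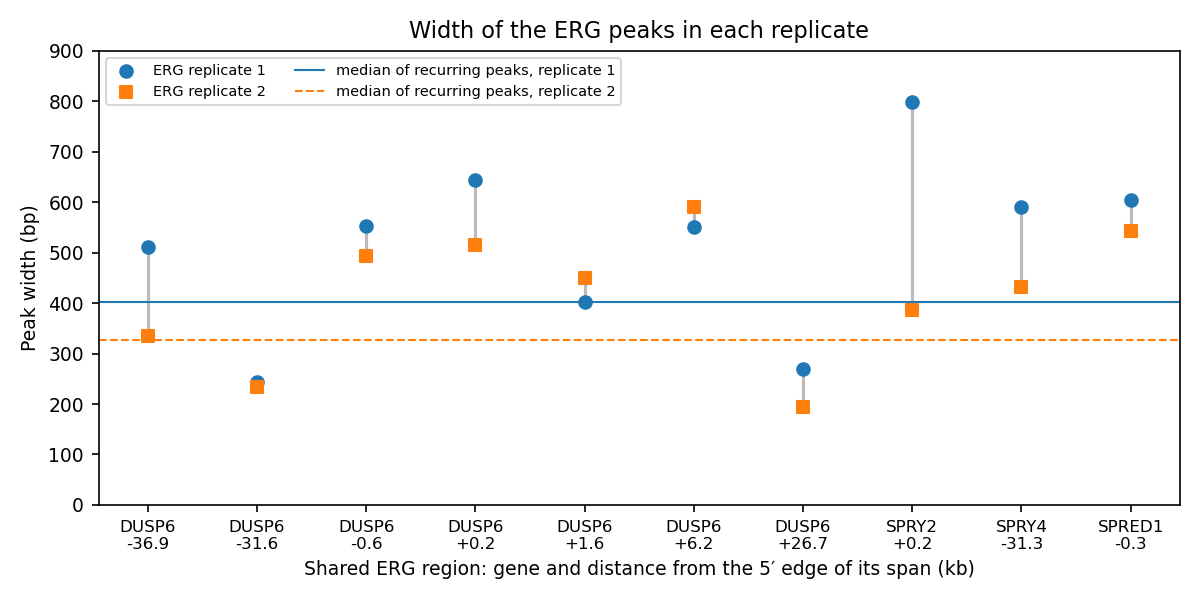
Width in bp (y axis, from 0) of the ERG peaks in replicates 1 (circles) and 2 (squares) at each of the 10 shared regions (x axis, gene and distance from its start edge in kb). Horizontal lines are the medians of all recurring peaks (403 bp in replicate 1, solid, and 326 bp in replicate 2, dashed), and the regions of DUSP6 at 31.6 kb upstream and 26.7 kb downstream are the ones below both lines in both replicates.

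For p53, a tumor suppressor that in its mutant forms can bind chromatin at other sites, no peak was listed in any of the windows. This is near the background of these short lists, since 0.95% of tiles of 106 kb held a p53 peak of either replicate. The nearest p53 peak to DUSP6 was 0.374 Mb from the span, at 89366665 to 89366880 in replicate 2 alone. In replicate 1 the nearest was 21.4 Mb away. For SPRED1 the nearest were 2.02 Mb away in replicate 1 and 35.3 Mb in replicate 2, for SPRY2 6.76 Mb and 30.4 Mb, and for SPRY4 34.5 Mb and 32.7 Mb. Of these 8 nearest p53 peaks, 5 overlapped an ERG peak of either list. The 3 that did not were those of replicate 2 for DUSP6 and SPRY4 and of replicate 1 for SPRY2. All 8 lay outside the windows, at 0.374 to 35.3 Mb from the spans, so this count does not describe the loci themselves. The share of all p53 peaks that overlap an ERG peak is not given here, so whether 5 of 8 is unusual was not tested. The contrast of 13 and 10 ERG peaks with 0 and 0 p53 peaks cannot be told apart from the difference in list length. Which threshold made the p53 lists is not settled. An exact permutation test of 2 lists against 2 cannot give a two-sided p below 0.333, and none was run. A window without a listed peak is not shown to be unoccupied.

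The counts depend on the width of the window. They would be the same for any distance between those of the following peaks, and other widths gave other counts, with 6 shared regions at 20 kb and 11 at 100 kb on each side. The farthest ERG peak inside a window lay 36.9 kb from its span (DUSP6, upstream), and the nearest one outside lay 87.9 kb from its span (SPRY4, downstream).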

How the data were processed

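ChIP-seq peak lists of 4 VCaP samples were used as deposited. Per the submitters' processing notes, CASAVA 1.4, Bowtie2 2.3.3.1 and MACS2 were used with hg19 (GRCh37). The study's methods name another Bowtie2 version, give both builds and state a single p-value threshold. Its reporting summary states a separate threshold for each factor. The ERG lists have the lengths that this summary gives for peaks passing a cutoff on the false discovery rate alone. Which p-value threshold came before that cutoff, and which threshold made the p53 lists, is not settled. The authors called peaks on each sample without pooling. The lists hold 4 columns (chromosome, start, end, name) and no counts, so depth was not used, and for p53 they match none of the peak numbers stated by the study. As a check of the build, 164 and 131 ERG peaks and 7 and 2 p53 peaks of replicates 1 and 2 lay past the ends of GRCh38 chromosomes, so the positions are not GRCh38. Within 1 kb of the hg19 start edges of the members lay 4 ERG peaks per replicate, and 0 within 1 kb of their GRCh38 starts.

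Peaks were assigned to windows, and overlapping ERG peaks of both replicates were merged. Tiles of each window's length were laid over each chromosome from the first to the last peak of all lists. Motifs were searched on both strands in RefSeq promoter windows (GRCh38.p14), in which all 4 genes were found, and strands come from the same table. Shares carry 95% Wilson intervals. No significance test was run. The members and lists were chosen with earlier results of these data known, the measures of runs and isolation were added after the peaks had been seen, and the text names every peak in the windows. Other feedback genes of the pathway were to be counted only with an hg19 annotation and are not analysed here. Counting functions were tested on simulated data. Python 3.11.15, numpy 2.4.6, scipy 1.17.1 and matplotlib 3.10.9 were used.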

Additional observations from a re-analysis of the deposited data

How the results depend on the processing

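Of 67 alternatives, 49 stayed within 1.5 times of the reported count or within the interval of the reported share, and 18 did not. With windows of 20 kb, 6 shared ERG regions remained in all, 4 of them at DUSP6 and 0 at SPRY4. With the spans alone (0 kb), 3 were left in 2 of the 4 genes, 2 at DUSP6, 1 at SPRY2, 0 at SPRY4 and 0 at SPRED1. With 100 kb, SPRY4 had 2 and the total was 11. A reciprocal overlap of 50% took away the SPRY2 region (0) and left 9 in all. Without 1 ERG replicate, all peaks of the other are counted, giving 10 to 13 in total, in 4 of 4 windows, with 7 to 8 at DUSP6, 1 at SPRY2, and 1 to 2 each at SPRY4 and SPRED1, where replicate 1 adds the second. Among peaks at least as wide as the median of their list, 100% of those of replicate 1 recurred, and 8 shared regions were left, 5 at DUSP6. Within 500 kb, 1 p53 peak was found. Counting only tiles with a peak of any list gave 0.112% for DUSP6, 67.7% for SPRY2, 68.0% for SPRY4 and 72.4% for SPRED1, since tiles without peaks were removed. A threshold on −log10 p could not be tried, as the lists carry none.

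No paired analysis was possible because lists of positions without values allow no replicate block. No ERG peak of the windows met a p53 peak of the same number (0 in replicate 1 and 0 in replicate 2). This outcome was fixed, because the windows held no p53 peak, and it adds nothing to that absence. Read depth, copy number and input chromatin were not analysed here.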
